A study of Mus musculus with 468 samples.

Results

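Mesothelium is the thin epithelial sheet that covers fat pads and lines the body cavities, and 9 genes that mark it are described here: Msln, Upk3b, Upk1b, Wt1, Krt8, Krt18, Krt19, Lrrn4 and Gpm6a. They were picked by gene symbol from the 23180 genes measured in adipose tissue, and all 9 were among the 18380 genes that reached 10 counts in 50% of the libraries or more. The tissue came from Diversity Outbred mice, animals bred so that the genomes of several inbred strains are mixed differently in each of them. Their feed was a high-fat, high-sugar (HFHS) diet, which the labels give as 45 percent fat. Per the methods of the study the fat was the gonadal pad and animals of both sexes were used, but the labels name no sex, generation or batch, so the libraries formed a single group with 1 library per mouse. With no repeat library of any mouse, the spread over mice holds both biology and assay error.

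Mesothelial cells form a smooth, lubricated surface, carry microvilli and tight junctions, and keep simple epithelial keratins although they arise from mesoderm. Gonadal fat lies inside the peritoneum, so a piece of it brings its covering along, whereas adipocytes, macrophages and progenitor cells make up its interior. Msln encodes mesothelin, a surface glycoprotein held by a lipid anchor. Upk3b and Upk1b encode uroplakins, membrane proteins that mesothelium shares with the lining of the bladder. Lrrn4 encodes a membrane protein with leucine-rich repeats and Gpm6a a membrane glycoprotein of the proteolipid family. Wt1 encodes a zinc finger transcription factor of mesothelium, gonad and kidney, which is also known from progenitors of visceral fat. Krt8 and Krt18 encode the partner keratins of simple epithelia and Krt19 a further keratin of such epithelia, so these 3 are also made by glands, ducts and other linings. Adgre1, a surface receptor of macrophages, and Pdgfra, a growth factor receptor of adipocyte progenitors, served as measures of 2 other cell types.

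The members lie on 7 chromosomes, and their positions on GRCm38 are those the files give. Msln (ENSMUSG00000063011) is on chromosome 17 from 25748613 to 25754378, Upk3b (ENSMUSG00000042985) on chromosome 5 from 136038496 to 136046487, and Upk1b (ENSMUSG00000049436) on chromosome 16 from 38773184 to 38800328. Wt1 (ENSMUSG00000016458) is on chromosome 2 from 105126529 to 105173616, and Lrrn4 (ENSMUSG00000043110) on the same chromosome from 132868305 to 132880891. Gpm6a (ENSMUSG00000031517) is on chromosome 8 from 54954843 to 55060871 and Krt19 (ENSMUSG00000020911) on chromosome 11 from 100140810 to 100148665. Krt8 (ENSMUSG00000049382) and Krt18 (ENSMUSG00000023043) are neighbours on chromosome 15, from 101996698 to 102004482 and from 102028180 to 102032027. They are read away from each other across a gap of 23.7 kilobases. Krt8 and Gpm6a overlap other annotated genes, 1 in the case of Krt8 and 5 in the case of Gpm6a, and the use of strand in the counting is not given in the sources used here, so part of their counts may belong to those genes.

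The starts of 4 members are shown because they form the 2 pairs on which the results turn: Upk3b and Lrrn4, which rose and fell together in all libraries, and Krt8 and Krt18, which did so as well but parted from the others in many libraries. Each run holds the 250 bases before the RefSeq start of the gene (GRCm38.p6), written 5′ to 3′ on the strand of the gene. Capitals mark a match on either strand to GGAATG, a core of the sites of TEAD factors, or to AGATAA, a core of the sites of GATA factors.
Upk3b, chr5:136038246-136038495, plus strand: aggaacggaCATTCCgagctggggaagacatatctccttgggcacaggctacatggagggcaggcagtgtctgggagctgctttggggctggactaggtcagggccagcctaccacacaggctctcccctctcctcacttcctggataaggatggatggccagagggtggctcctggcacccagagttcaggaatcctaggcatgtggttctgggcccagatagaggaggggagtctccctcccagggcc
Lrrn4, chr2:132880863-132881112, minus strand: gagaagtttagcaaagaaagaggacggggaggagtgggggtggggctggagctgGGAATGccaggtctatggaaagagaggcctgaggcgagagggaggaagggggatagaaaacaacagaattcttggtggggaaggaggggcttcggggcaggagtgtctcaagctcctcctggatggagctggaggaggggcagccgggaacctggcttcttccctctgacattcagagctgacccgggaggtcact
Krt8, chr15:102004343-102004592, minus strand: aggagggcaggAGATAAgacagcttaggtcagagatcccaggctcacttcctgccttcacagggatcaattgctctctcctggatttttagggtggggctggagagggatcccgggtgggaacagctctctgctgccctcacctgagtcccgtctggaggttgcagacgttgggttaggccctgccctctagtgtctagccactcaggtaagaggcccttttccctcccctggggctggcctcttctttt
Krt18, chr15:102027966-102028215, plus strand: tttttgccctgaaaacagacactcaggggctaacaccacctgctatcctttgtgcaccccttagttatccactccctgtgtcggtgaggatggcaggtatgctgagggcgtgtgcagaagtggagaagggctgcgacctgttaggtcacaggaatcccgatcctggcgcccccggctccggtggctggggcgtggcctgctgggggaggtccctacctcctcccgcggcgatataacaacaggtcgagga
Promoters of 5 members were found in the RefSeq table, with 2 starts for Gpm6a, and Msln, Upk1b, Wt1 and Krt19 had none there. GGAATG or its complement stood in the 250 bases of Upk3b, of Lrrn4 and of 1 start of Gpm6a, and in 12.6% of 32851 mouse promoters of the same length. AGATAA stood in the stretch before Krt8 and in 9.99% of those promoters. GGGCGG, a core of SP1 sites found in 32.7%, and GCGTGGGAG, a WT1 site found in 0.405%, matched none of the 6 member promoters. G and C made up 60.8% of the stretch before Upk3b, 59.2% before Lrrn4, 58% before Krt8 and 60.4% before Krt18. A match of letters is a description and shows no binding.

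Libraries held 35.3 M to 137.8 M expected counts, with a median of 82.04 M (M, 1000000 counts), and every member had counts in every library. They fell into 2 clusters by the genes of the Y chromosome: 51.5% held Y chromosome counts and 48.5% did not. The study reports as many males with adipose data as there were libraries with Y chromosome counts. It reports as many females as there were libraries without them. The clusters thus match males and females in number, so differences between them may be differences between the sexes. The labels name the sex of no single mouse. Mice DO153 and DO347 had no Y chromosome counts and Xist under 50 CPM, and were kept among those without. Many pieces of fat also held transcripts of another tissue, defined as a summed level of its marker list over 50 CPM and over 10 times the median of all libraries. CPM is counts per 1000000 after TMM scaling of the library totals. By that rule 30.1% of the libraries stood apart, 98 with and 43 without Y chromosome counts (40.7% and 18.9% of each). General epithelium (Epcam, Cdh1, claudins and 5 other genes, no keratin) was the most frequent, in 80 libraries with and 2 without Y chromosome counts. Liver transcripts stood out in 41 libraries, skeletal muscle in 15, seminal vesicle in 11, epididymis, ovary and pancreas in 3 each, and urothelium in 1. Few list genes were measured for some tissues: 2 of 12 for epididymis, 2 of 8 for seminal vesicle and 3 of 8 for pancreas. Urothelium had 2 of 5 and general epithelium all 10. The counts of libraries can therefore not be compared between tissues. Because of this, results below are given in both clusters and, where it matters, without the libraries that held transcripts of another tissue. The libraries kept were not free of such transcripts, but held them at levels that did not meet the rule.

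Of the membrane proteins of mesothelium, Upk3b had the highest transcript level. It lay between 13.9 and 287.3 CPM, and the median was 82.8 with an SD of 43.7 over all mice. Its mean was 88.6 CPM. Msln ranged from 6.18 to 126.2 CPM around a median of 30.04, Lrrn4 from 7.84 to 131.1 around 32.7 and Gpm6a from 7.51 to 123.2 around 29.6. Upk1b was lower, from 2.08 to 60.1 CPM around 13.4. From the 5th to the 95th percentile of mice these 5 transcripts spanned 4.26-fold (Gpm6a) to 5.47-fold (Upk1b). In bulk tissue, fewer cells of a type and less RNA per cell cannot be told apart, so a low value may mean either.

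The transcription factor Wt1 lay between 7.01 and 62.7 CPM around a median of 18.2. The keratins were the most uneven members. Krt19 ranged from 4.15 to 181.2 CPM around a median of 17.2, Krt8 from 1.11 to 122.4 around 7.41 and Krt18 from 1.13 to 216.8 around 4.90. The SD of log2 CPM was 1.23 for Krt8, 1.11 for Krt18 and 0.89 for Krt19, against 0.63 to 0.73 for the 6 other members and a median of 0.46 over the 18380 genes. The spread of Krt8 was larger than that of 89.3% of those genes and the spread of Wt1 than that of 63.4%.

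Divided by the merged exon length, the levels can be ordered between genes. Upk3b led with a median of 23.5 CPM per kilobase (interquartile range 16.4 to 31.3) and was above Msln in 100% of the mice. Msln followed at 9.81, Krt19 at 9.25, Gpm6a at 9.20 and Lrrn4 at 8.82 CPM per kilobase. These 4 did not differ beyond their spread: their interquartile ranges overlapped, and each was above the next in 62.8%, 46.6% and 61.3% of the mice. Upk1b at 6.44, Krt8 at 3.78, Krt18 at 3.41 and Wt1 at 2.94 CPM per kilobase completed the order, and Lrrn4 was above Upk1b in 87.8% of the mice.

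**Figure D1:**
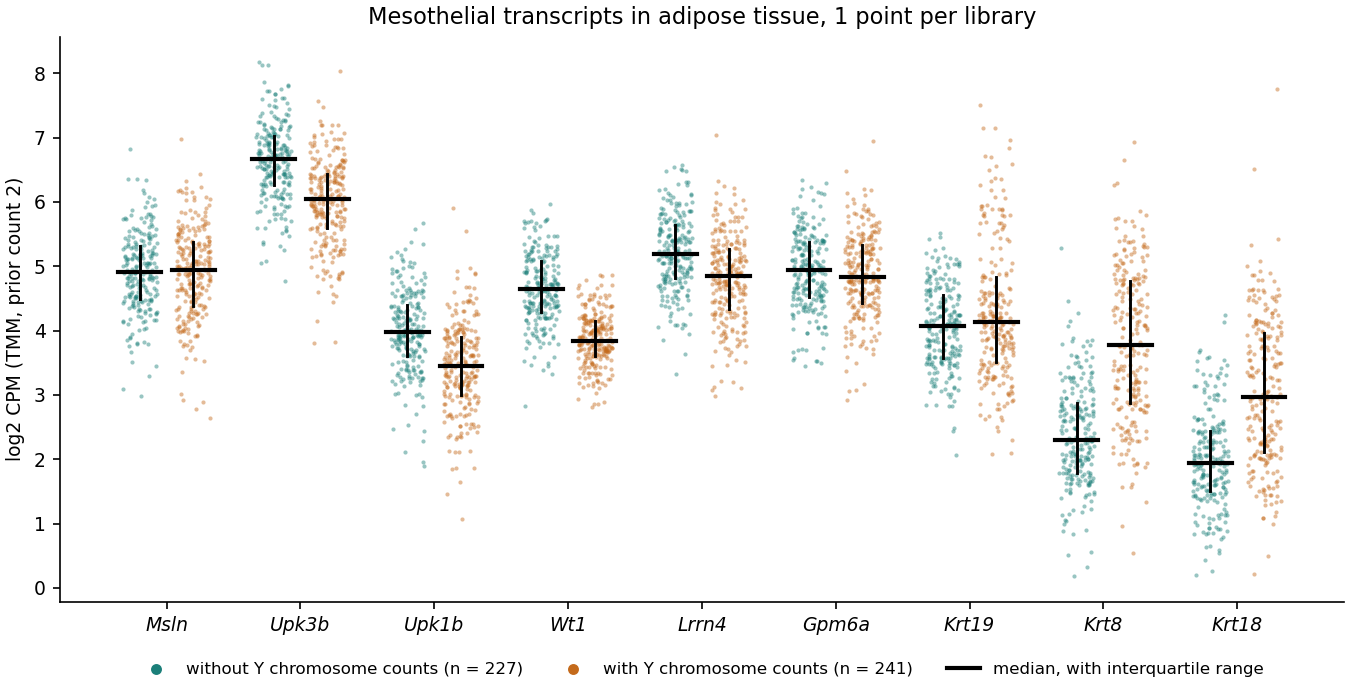
Level of each member as log2 CPM (TMM, prior count 2) on the vertical axis, with 1 point per library in 2 groups, without and with Y chromosome counts, and bars for the median and the interquartile range. Krt8 and Krt18 sit higher in the libraries with Y chromosome counts (medians 13.6 and 7.77 CPM against 4.91 and 3.83), Wt1 and Upk3b lower, and the points of all 9 members overlap between the clusters.

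The levels differed between the clusters in opposite directions for different members, which is given here as a description. The median of Wt1 was 14.3 CPM with and 25.05 CPM without Y chromosome counts, a ratio of 0.569. Upk3b had medians of 65.8 and 101.4 CPM (ratio 0.649), Upk1b 10.9 and 15.7 (0.698), and Lrrn4 28.7 and 36.4 (0.789). Msln, at 30.8 and 29.9 CPM, and Krt19, at 17.5 and 16.8, had nearly equal medians. Gpm6a had a ratio of 0.927, which turned to a value above 1 when library totals were used without TMM scaling. Krt8 and Krt18 went the other way, with medians 2.77 and 2.03 times as high in the libraries with Y chromosome counts. Without the libraries with transcripts of another tissue these ratios were 1.77 for Krt8 and 1.31 for Krt18, that of Krt19 was 0.889, and that of Wt1 was 0.589. The sum of the general epithelium list had a median of 12.2 CPM with Y chromosome counts (0.368 to 716) and of 1.07 CPM without them (0.272 to 76.03).

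The libraries at the top of a member were not alike in the other members, and the mice named here are examples. Mouse DO071 had the highest Msln (126.2 CPM), Lrrn4 (131.1 CPM) and Gpm6a (123.2 CPM), and its Upk3b ranked 4 among all mice at 262.3 CPM. Mouse DO144 was among the 3 highest for Msln, Upk3b and Upk1b, and mouse DO064 for Upk3b, Wt1 and Gpm6a. In these 3 mice Krt18 ranked only between 84 and 95 and the general epithelium sum was between 1.71 and 2.26 CPM. Mouse DO283 was different: it had the highest Krt18 (216.8 CPM) and Upk1b (60.1 CPM) and the second highest Krt8 (100.2 CPM), whereas only 12 mice had a lower Upk3b than its 28.6 CPM and only 1 a lower Lrrn4 than its 8.41 CPM. The general epithelium sum of that library was 620.8 CPM. Mouse DO415 had the lowest Msln, Upk3b and Upk1b of all (6.18, 13.9 and 2.08 CPM) beside a general epithelium sum of 78.95 CPM.

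Whether the members rose and fell together across mice was asked with Pearson's r of log2 CPM for each of the 36 pairs, in each cluster. Among the libraries without Y chromosome counts all 36 pairs were positive, from 0.478 (Krt18 with Lrrn4) to 0.871 (Upk3b with Gpm6a), with a median of 0.687. Each of the 36 had p = 1e-05 by a two-sided permutation test over mice, the smallest that 100000 resamples can give. Among the libraries with Y chromosome counts the 15 pairs without a keratin kept high values, from 0.504 to 0.917 with a median of 0.821. The 18 pairs of a keratin and another member did not: their median r was 0.0425, against 0.588 in the other cluster. The 3 pairs of keratins had r between 0.734 and 0.949. In all, 63 relations were computed in each set of libraries, and adjusted p values of correlations are Benjamini-Hochberg values over those 63. At the smallest permutation p the adjusted values were 1.43e-05 without and 2.17e-05 with Y chromosome counts.

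Upk3b and Lrrn4 were the tightest pair outside the keratins over all libraries. Their r was 0.896 (rho 0.883), 0.854 without and 0.917 with Y chromosome counts, and between 0.862 and 0.923 in each of 5 blocks of consecutive mouse numbers. Msln and Gpm6a had an r of 0.817, and Gpm6a ranked 1 among all genes tested by its correlation with Msln. Upk3b ranked 2 in that order. Leaving out the 2 libraries farthest from the median moved r of Upk3b and Lrrn4 to 0.892 and that of Msln and Gpm6a to 0.817.

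Wt1 had an r with Upk3b of 0.807 without and 0.616 with Y chromosome counts, and an r with Msln of 0.594 and 0.544. The SD of log2 CPM of Wt1 was smaller with Y chromosome counts, at 0.41 against 0.56. The range of Wt1 was 7.01 to 29.2 CPM there and 7.04 to 62.7 CPM in the other cluster.

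Krt8 and Krt18 had an r of 0.910 over all libraries, 0.731 without and 0.949 with Y chromosome counts, and Krt18 ranked 1 among all genes by its correlation with Krt8. With Upk3b, Krt8 had an r of 0.545 in libraries without Y chromosome counts and of 0.0263 (permutation p = 0.684, adjusted 0.770) in those with them. Krt18 had 0.571 and -0.0187 (permutation p = 0.773, adjusted 0.803). Krt19 stood between, at 0.757 and 0.364, both with p = 1e-05 by permutation. Of the libraries with Y chromosome counts, 59.3% did not meet the rule for transcripts of another tissue. In these libraries r with Upk3b was 0.397 for Krt8, 0.346 for Krt18 and 0.705 for Krt19. Their permutation p values were 1e-05, 2e-05 and 1e-05, each at or below 3.5e-05 when adjusted.

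**Figure D2:**
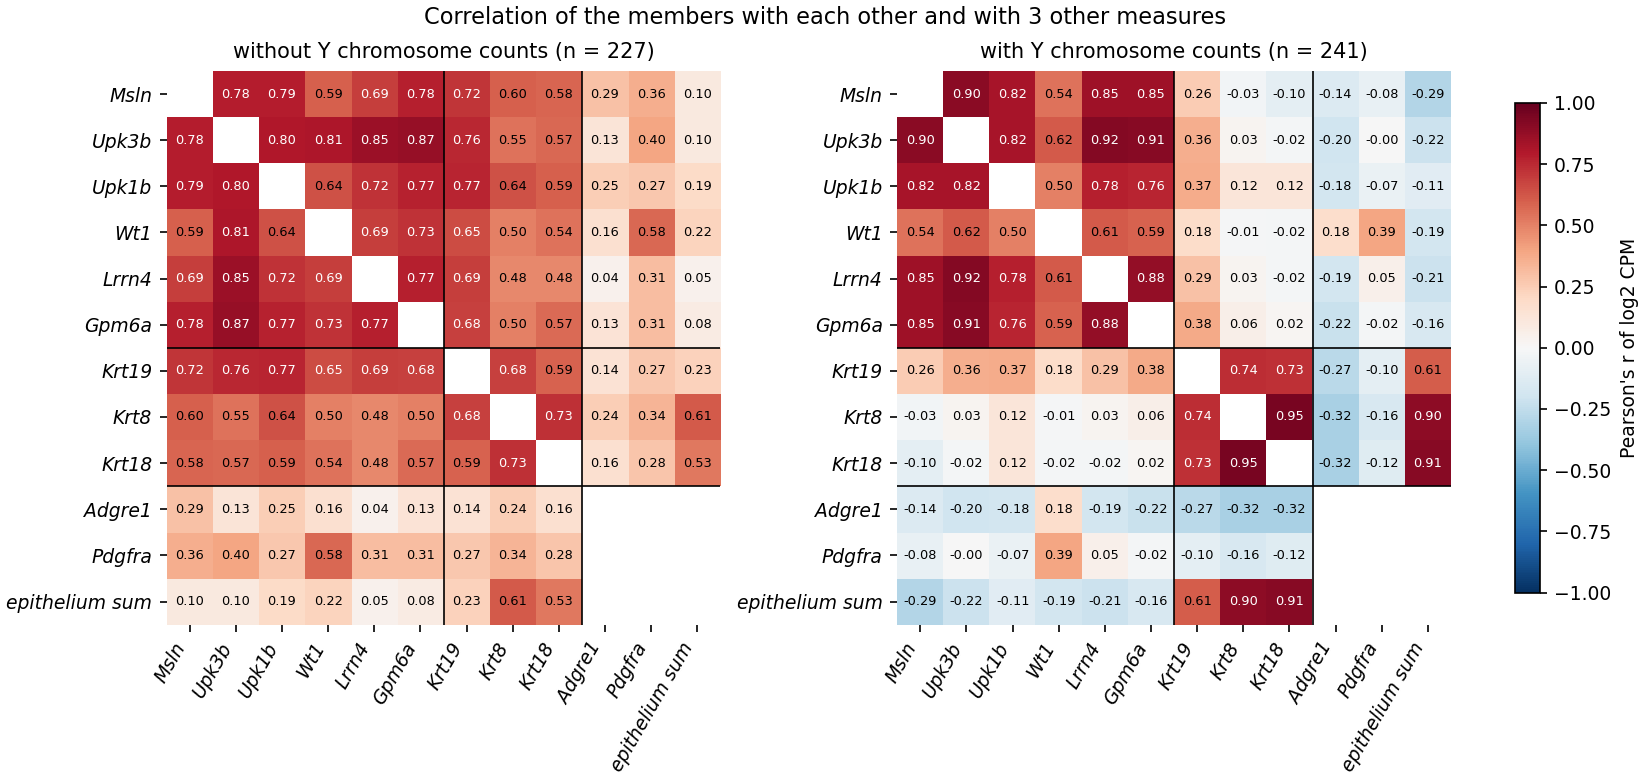
Pearson's r of log2 CPM between members, and of members with Adgre1, Pdgfra and the log2 sum of the general epithelium list, in libraries without (left) and with Y chromosome counts (right). The block of the first 6 genes is red in both panels, the 3 keratins join it on the left, and on the right Krt8 and Krt18 have r between -0.0989 and 0.123 with those genes and of 0.897 and 0.913 with the epithelium sum.

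The keratins moved with general epithelium in the libraries with Y chromosome counts. There r with the log2 sum of that list was 0.897 for Krt8, 0.913 for Krt18 and 0.608 for Krt19, each with p = 1e-05 by permutation, while the 6 other members had r between -0.289 (Msln) and -0.112 (Upk1b). Without Y chromosome counts the values were 0.610 for Krt8, 0.527 for Krt18 and 0.231 for Krt19, and the 6 others lay between 0.0458 and 0.219. With the libraries with transcripts of another tissue left out these were 0.546, 0.443 and 0.239, and the 6 others lay between 0.196 and 0.273. In the same reduced set, r in libraries with Y chromosome counts was 0.738 for Krt8, 0.788 for Krt18 and 0.353 for Krt19. The epithelium sum of these libraries did not spread evenly but had a lower and a higher body of points, so r there describes a difference between 2 bodies as well as a trend. The 6 other members were then between -0.0683 and -0.0202. How much of each keratin transcript came from mesothelium and how much from other epithelium was not tested.

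**Figure D3:**
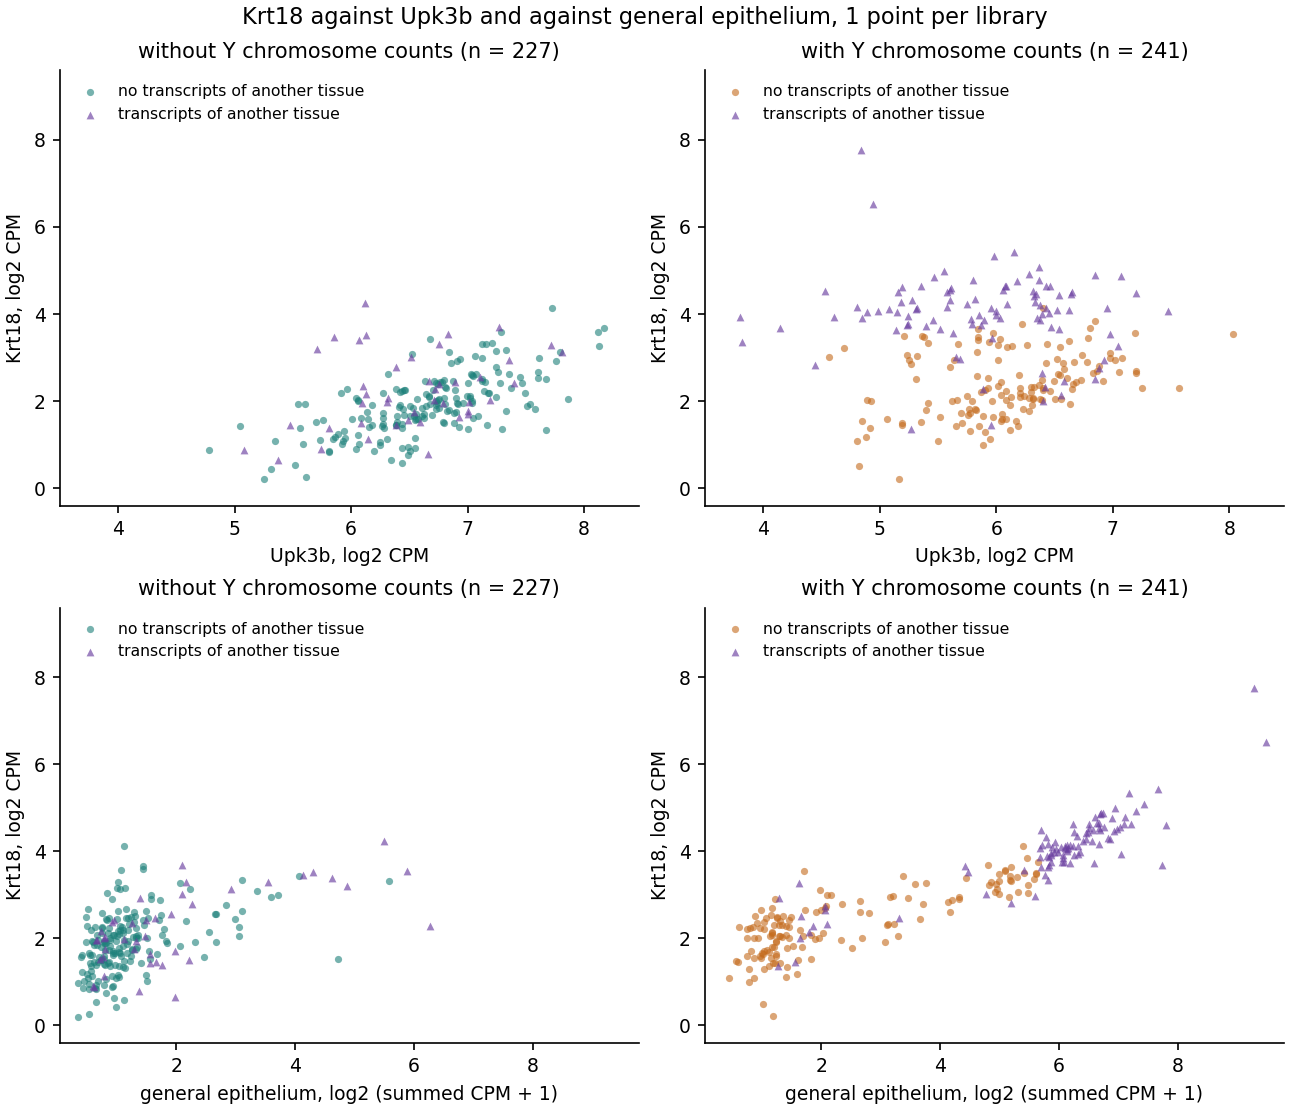
Krt18 as log2 CPM against Upk3b (top) and against the log2 of the summed general epithelium CPM plus 1 (bottom), in libraries without (left) and with Y chromosome counts (right), 1 point per library. Triangles are the libraries with transcripts of another tissue. On the right 80 of the 98 triangles met the rule by general epithelium. Most lie along the top of the Upk3b panel and at the upper end of the epithelium panel, where mouse DO283 is the highest point at 216.8 CPM of Krt18.

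How far other genes followed the mesothelial ones was measured with edgeR's quasi-likelihood model, fitted to all genes with log2 CPM of Upk3b as predictor. Its slope is the log2 change of a gene per 1 log2 CPM of Upk3b, and calls use Benjamini-Hochberg adjusted p under 0.05. Over all libraries 62.1% of the 18379 other genes were called, so a call alone says little about a gene. The median slope of all genes was -0.01. Large slopes were not particular to the members: the median was 0.80 over the skeletal muscle list and -1.27 over the general epithelium list. All 8 other members were called. Slopes were 0.84 ± 0.02 (SE) for Lrrn4, 0.72 ± 0.02 for Gpm6a and 0.66 ± 0.03 for Wt1, and those of Krt8 and Krt18 were negative, -0.37 ± 0.08 and -0.43 ± 0.07. Without the libraries with transcripts of another tissue the slopes of Krt8 and Krt18 were 0.17 and 0.28. With Xist and Y chromosome genes as further terms Krt8 had 0.17 and Krt18 -0.01 (edgeR adjusted p = 0.931), and in limma neither was called, at -0.17 and -0.10.

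Fitted in each cluster, the slope of all 8 on Upk3b was positive without Y chromosome counts, from 0.66 (Krt18) to 0.86 (Gpm6a), each called, where 42.2% of all genes were. With Y chromosome counts 7 of the 8 were called (42% of all genes): 6 rose, Krt18 fell with a slope of -0.37 ± 0.09, and Krt8 at -0.11 ± 0.09 was not called (edgeR adjusted p = 0.304). The fall of Krt18 was not seen in log2 CPM, where r with Upk3b in these libraries was -0.0187 and rho 0.0219. The difference of the slopes between the clusters was itself called for 5 members, against 38.9% of all genes. It was -1.03 ± 0.14 for Krt18, -0.78 ± 0.14 for Krt8, -0.38 ± 0.12 for Krt19, -0.36 ± 0.05 for Wt1 and 0.13 ± 0.05 for Msln. Lrrn4, Gpm6a and Upk1b had differences of 0.09, 0.0036 and -0.14, which were not called. Without the libraries with transcripts of another tissue the slopes with Y chromosome counts were 0.37 ± 0.09 for Krt8 and 0.30 ± 0.08 for Krt18, and their differences of -0.36 ± 0.12 and -0.51 ± 0.11 were still called. That of Wt1 was -0.36 ± 0.05 and was called too, whereas those of Krt19 and Msln were not. Of all genes 33.8% were called on the difference in that fit.

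A list of 16 further mesothelial genes, written with earlier results of these data known, was measured for 15 of them. Over all libraries 10 of the 15 rose with Upk3b, 1 fell and 4 were not called, with a median slope of 0.27. Without Y chromosome counts all 15 rose (median slope 0.75), and with them 10 rose and 1 fell (median 0.35). Of all genes 62.1% were called over all libraries, 42.2% without and 42% with Y chromosome counts. Of the 4 with the highest mean level, Muc16, a large surface mucin, had a slope of 0.95 ± 0.03 and Pkhd1l1, a large membrane protein, of 0.91 ± 0.02. Cldn15, a claudin of tight junctions, had 0.20 ± 0.02. Ezr, the microvillus protein ezrin, had a slope of 0.54 ± 0.05 without Y chromosome counts and of 0.09 ± 0.04 with them, and only the former was called. Lrp2, an endocytic receptor of several epithelia, was the gene that fell by its slope, and it was picked after its values were seen. Its slope was 0.92 ± 0.11 without and -0.33 ± 0.09 with Y chromosome counts. Pearson's r of Lrp2 and Upk3b was 0.793 without and -0.0377 with Y chromosome counts, and 0.0252 over all libraries. The fall was thus not seen in r of log2 CPM.

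The 15 genes outside the members with the highest r with Upk3b over all libraries were Nkain4, Bnc1, Tmem151a, Myrf, Pkhd1l1, Crb2, Wnt2b, Muc16, Krt7, Rspo1, Cyp2s1, Gata5, Megf6, Gm765 and Plxna4. Of these, 7 are on the list of further mesothelial genes. Nkain4 and Bnc1, the latter a zinc finger protein known from mesothelium, both had an r of 0.92, and for the 15 genes r was between 0.764 and 0.923 over all libraries, between 0.715 and 0.916 without and between 0.669 and 0.920 with Y chromosome counts. Krt7, a keratin outside the members, had an r of 0.776 without and 0.832 with Y chromosome counts, unlike Krt8 and Krt18. At the other end, Zbtb18 (-0.565), Gtf2f2 (-0.553), Herc3 (-0.527), Rnf149 (-0.526) and Tekt1 (-0.519) had the lowest r. All 5 genes closest to Gpm6a, namely Nkain4, Bnc1, Tmem151a, Pkhd1l1 and Myrf, were also among the 15 of Upk3b.

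The genes closest to Wt1 and Krt19 were others. Those of Wt1 were Nbl1 (0.874), Wnt2b (0.828), Cdh11 (0.816), Wt1os (0.802) and Myrf (0.796), of which 2 were among the 15 of Upk3b. Cdh11, a cadherin of mesenchymal cells, and Nbl1, a secreted antagonist of bone morphogenetic proteins, were not. Wt1os is read in the opposite direction from a start next to that of Wt1, and the annotation shows no overlap between them. Those of Krt19 were Wnt7b (0.770), Gnaz (0.751), Lsr (0.725), Dusp5 (0.722) and Ptgs2 (0.720), none of them among the 15. The r of Wnt7b with Krt19 was 0.864 with and 0.453 without Y chromosome counts.

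The relation to macrophages was asked with Adgre1, which lay between 10.7 and 670.8 CPM around a median of 47.5. Its median was 61.9 CPM with and 38.2 CPM without Y chromosome counts. Over all libraries 77.3% of all genes were called in the edgeR fit on Adgre1, and 5 of the 9 members were, all with negative slopes. Upk3b had -0.21 ± 0.04 log2 per 1 log2 CPM of Adgre1, Upk1b -0.18 ± 0.04, Lrrn4 -0.16 ± 0.03, Krt18 -0.16 ± 0.06 and Wt1 -0.14 ± 0.03. Msln at 0.01 ± 0.04, Krt8 at 0.05 ± 0.07, Krt19 at -0.09 ± 0.05 and Gpm6a at -0.07 ± 0.03 were not called. With 5 of 9 called, the share lay below that of all genes. With Xist and Y chromosome genes as further terms the calls of Upk3b, Upk1b and Lrrn4 were lost, at -0.06 (edgeR adjusted p = 0.155), -0.07 (0.118) and -0.08 (0.0641), and Wt1 turned to 0.10. In that fit Krt8 and Krt19 were called as well, at -0.18 and -0.21. The slope of Krt18 was 0.0932 in limma and 0.16 without the libraries with transcripts of another tissue, and Krt8 was called in both, at 0.21 and 0.25.

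Within the clusters the slopes on Adgre1 had opposite signs for 8 of the 9 members, and the same sign for Wt1. Without Y chromosome counts all 9 slopes were positive, but only 5 of 9 were called, a share below the 63% of all genes. Those called were Msln at 0.31 ± 0.07, Krt8 at 0.30 ± 0.10, Upk1b at 0.25 ± 0.08, Upk3b at 0.16 ± 0.07 and Wt1 at 0.15 ± 0.05. With Y chromosome counts all 9 were called, against 71.6% of all genes. There 8 fell, from -0.13 ± 0.05 (Msln) to -0.53 ± 0.06 (Krt18), and Wt1 rose by 0.07 ± 0.03. The difference of the slopes was called for 8 members, each lower with Y chromosome counts, against 50.9% of all genes called in either direction. It was -0.44 ± 0.09 for Msln (edgeR adjusted p = 4.81e-06), -0.45 ± 0.09 for Upk1b and -0.32 ± 0.08 for Upk3b. For Wt1 it was -0.08 ± 0.06 and was not called (edgeR adjusted p = 0.296).

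The same 8 differences were called without the libraries with transcripts of another tissue, where 46.8% of all genes were. They included -0.59 ± 0.10 for Msln, -0.39 ± 0.09 for Upk3b and -0.36 ± 0.11 for Krt18. In that fit Krt18 and Krt19 had slopes of -0.10 ± 0.07 and -0.11 ± 0.06 with Y chromosome counts and were no longer called there, nor was Wt1 at 0.08 ± 0.04 (edgeR adjusted p = 0.114). Upk3b without Y chromosome counts lost its call too, at 0.15 ± 0.08 (edgeR adjusted p = 0.0651), whereas Krt18 and Krt19 were called there, at 0.26 ± 0.09 and 0.20 ± 0.08. Pearson's r for Msln and Adgre1 was 0.292 without (permutation p = 2e-05, adjusted 2.68e-05) and -0.140 with Y chromosome counts (permutation p = 0.0292, adjusted 0.0428), and rho was 0.323 and -0.133. Without the 2 libraries farthest from the median the latter r was -0.118, which did not pass p under 0.05. For Upk3b r was 0.127 (permutation p = 0.0566, adjusted 0.0615) and -0.196 (permutation p = 0.00247, adjusted 0.00445), and rho was 0.183 and -0.220. The median r of the 9 members with Adgre1 was 0.158 and -0.196. With library totals in place of TMM scaling these medians were 0.352 and -0.154, and over all libraries the median turned from -0.0985 to 0.0774.

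The relation to adipocyte progenitors was asked with Pdgfra, which lay between 50.5 and 292.3 CPM around a median of 116.1. Of all genes 51.7% were called on Pdgfra over all libraries, and all 9 members were. The 6 that are not keratins rose, from 0.19 ± 0.07 for Msln to 0.89 ± 0.06 for Wt1, and Upk3b had 0.56 ± 0.07. The keratins fell, Krt8 by 0.69 ± 0.13, Krt18 by 0.66 ± 0.11 and Krt19 by 0.27 ± 0.11 on the log2 scale. Pearson's r with Pdgfra was -0.151 for Krt8 (permutation p = 0.00102) and -0.124 for Krt18 (0.00718). The fall of Krt19 was not seen in log2 CPM, where r was -0.00878 (permutation p = 0.852) and rho 0.0452. Without the libraries with transcripts of another tissue Krt18 had 0.0102 and Krt19 0.28, and the calls of Krt8 at -0.23 and of Msln at 0.18 were lost. With Xist and Y chromosome genes as further terms Krt8 had 0.0231, and the calls of Krt19 at -0.03 (edgeR adjusted p = 0.834) and of Upk1b at 0.07 (0.489, against a slope of 0.29) were lost. Krt19 also lost its call in limma, at -0.02. Wt1 was the member closest to Pdgfra, with an r of 0.555 over all libraries, 0.577 without and 0.395 with Y chromosome counts, each with a permutation p of 1e-05.

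Within the clusters the slopes on Pdgfra parted as well. Without Y chromosome counts all 9 members rose and were called (54.7% of all genes), with slopes from 0.45 ± 0.12 for Upk1b to 0.83 ± 0.07 for Wt1. Krt8 had 0.78 ± 0.17 and Krt18 0.52 ± 0.17. With Y chromosome counts 4 members were called (50.4% of all genes): Wt1 rose by 0.41 ± 0.07, and Krt18 at -0.57 ± 0.13, Krt8 at -0.48 ± 0.15 and Krt19 at -0.42 ± 0.16 fell. Pearson's r with Pdgfra in these libraries was -0.124 for Krt18 (permutation p = 0.0534), -0.161 for Krt8 (0.0117) and -0.0981 for Krt19 (0.128). Upk3b at 0.01 ± 0.10, Msln at -0.12 ± 0.11, Upk1b at -0.20 ± 0.10, Lrrn4 at 0.10 ± 0.11 and Gpm6a at -0.01 ± 0.10 were not called there. The difference was called for all 9, each lower with Y chromosome counts, against 46.4% of all genes, and ranged from -0.36 ± 0.15 for Lrrn4 to -1.26 ± 0.23 for Krt8. It was also called for all 9 without the libraries with transcripts of another tissue, against 38% of all genes. In that fit, with Y chromosome counts, Krt18 at -0.27 ± 0.15 (edgeR adjusted p = 0.126) and Krt19 at -0.11 ± 0.14 (0.560) were not called, and Krt8 at -0.47 ± 0.15 was. Adgre1 and Pdgfra were measured in the same libraries, so the values on both are given side by side and not as separate support.

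**Figure D4:**
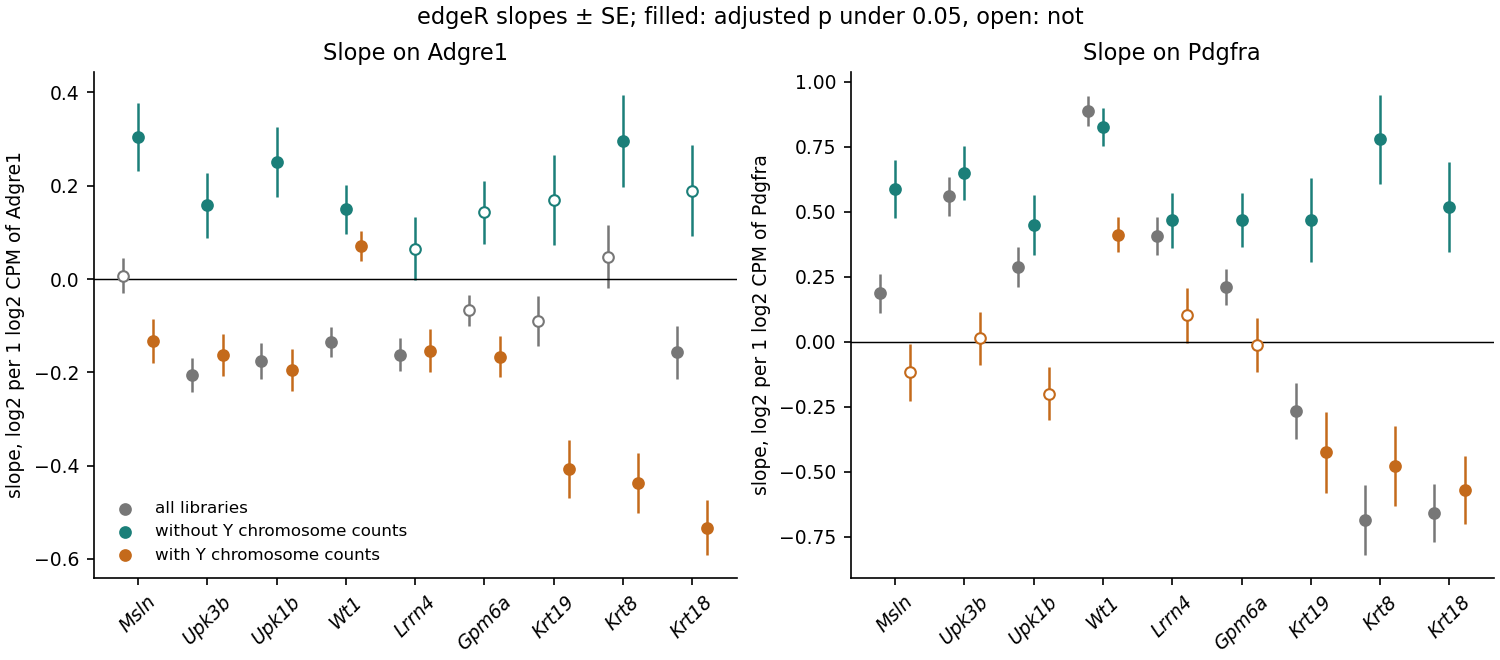
Slope of each member in log2 per 1 log2 CPM of Adgre1 (left) and Pdgfra (right) from edgeR, with bars of 1 SE, over all libraries (grey) and those without and with Y chromosome counts, and filled points where the adjusted p was under 0.05. On Adgre1 the 9 slopes without Y chromosome counts lie above 0 and 8 of 9 with them below, and on Pdgfra Wt1 is the member that stays above 0 and called in both.

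Levels of lists of other cell types are given as a description, since their ranges overlapped and no difference between the clusters was tested. The macrophage list summed to a median of 1327 CPM with and 920.3 CPM without Y chromosome counts, the progenitor list to 3725 and 4209, the adipocyte list to 21949.7 and 24664 and the endothelial list to 1255 and 1182. The 15 further mesothelial genes summed to medians of 296.8 and 275.8 CPM, with ranges of 158.6 to 693.3 and 101.4 to 673.4. Without the libraries with transcripts of another tissue those medians were 273.8 and 277.2 CPM, those of the progenitor list 4278 and 4353 and those of the macrophage list 1508 and 923.5. The part of these levels in the slopes was not tested.

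Mouse and library numbers are the only orders that the labels give, and both were put in 1 edgeR model. Of all genes 23.9% were called on mouse number, and 7 of the 9 members were: Wt1, Lrrn4, Upk3b, Upk1b and Gpm6a fell by 0.06 to 0.08 log2 per 100 mouse numbers, and Krt8 and Krt18 rose by 0.13 ± 0.04 and 0.12 ± 0.04. The highest block of mouse numbers held 57 libraries with Y chromosome counts of 93, against 44 to 48 of 93 or 94 in the others. With Xist and Y chromosome genes as further terms only Gpm6a was called (-0.06 ± 0.02, edgeR adjusted p = 0.0384), beside 12.3% of all genes. Without the libraries with transcripts of another tissue the calls of Krt8 and Krt18 were lost, at 0.05 and 0.03 log2 per 100 mouse numbers. On library number none of the 9 members was called by edgeR, limma or DESeq2, beside 0.267% of all genes by edgeR. At an unadjusted p under 0.05 there were 2, 0 and 2.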

How the data were processed

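Adipose RNA of 468 mice was measured by sequencing of polyadenylated RNA. Per the methods of the study, reads were aligned to a joined transcriptome of the founder strains and shared reads were divided by expectation maximization (EMASE, run by GBRS); no source used here states their versions or whether strand was used. The authors deposited expected counts per gene, 66.8% of them whole within 1e-06, and a second table of log2-scale values from the variance stabilizing transformation (VST) of DESeq2, used as an alternative. Of the libraries 241 held and 227 lacked Y chromosome counts, and 141 held transcripts of another tissue. The submitters' processing notes name GRCm38, and all member positions matched GENCODE M21. Division of shared reads makes counts of overlapping genes uncertain.

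Expected counts were rounded for edgeR 4.0.16 (quasi-likelihood test, TMM factors 0.580 to 1.37) and DESeq2 1.42.0, in R 4.3.3. In limma 3.58.1 the log2 CPM of unrounded expected counts, or the VST values, were fitted. Log2 CPM used a prior count of 2. Each predictor was fitted over all 18380 genes that passed the filter, the predictor itself left out, with Benjamini-Hochberg adjustment over all of them. Correlations used two-sided permutation tests with 100000 resamples in Python 3.11.15. The fits and the correlation test were tested on simulated data. The genes named are the 9 members, Adgre1, Pdgfra, the list genes of highest mean CPM, the 15 highest and 5 lowest genes by r with Upk3b, and the 5 highest with Wt1, Krt19 and Gpm6a; the mice named are among the 3 highest or the lowest of a member. The members and gene lists were chosen with earlier results of these data known. Separate slopes by Y chromosome counts and the epithelium sum were added after seeing the data. Alternatives were limma, DESeq2, DESeq2 size factors, total counts without TMM, another prior count, no filter, VST values, Xist and Y chromosome genes or both numbers as covariates, and left-out libraries.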

Additional observations from a re-analysis of the deposited data

Results flagged for a closer look

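These are the members whose relation to another transcript differed between the libraries with and those without Y chromosome counts, by the test of the difference in edgeR over all genes; each value is the slope with minus the slope without Y chromosome counts, in log2 per 1 log2 CPM of the predictor. The share of all genes called was 50.9% on Adgre1, 46.4% on Pdgfra and 38.9% on Upk3b, so such a difference is frequent in these libraries. Without the libraries that held transcripts of another tissue the shares were 46.8%, 38% and 33.8%. The clusters also differ in the frequency of transcripts of another tissue (98 against 43 libraries), whose part in the differences was not tested beyond leaving those libraries out.

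On Adgre1 the difference was -0.73 for Krt8, -0.72 for Krt18, -0.58 for Krt19, -0.45 for Upk1b, -0.44 for Msln, -0.32 for Upk3b, -0.31 for Gpm6a and -0.22 for Lrrn4. Without the libraries that held transcripts of another tissue the keratins had smaller values, -0.51 for Krt8, -0.36 for Krt18 and -0.31 for Krt19, whereas Msln had -0.59 and Upk3b -0.39.

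On Pdgfra the difference was -1.26 for Krt8, -1.09 for Krt18, -0.89 for Krt19, -0.71 for Msln, -0.65 for Upk1b, -0.63 for Upk3b, -0.48 for Gpm6a, -0.41 for Wt1 and -0.36 for Lrrn4. Without the libraries that held transcripts of another tissue it was -1.27 for Krt8, -0.61 for Krt19 and -0.38 for Wt1, and the 9 calls held.

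On Upk3b the difference was -1.03 for Krt18, -0.78 for Krt8, -0.38 for Krt19, -0.36 for Wt1 and 0.13 for Msln. Without the libraries that held transcripts of another tissue 3 of the 5 were called, and Krt19 had -0.11 and Msln 0.12.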

How the results depend on the processing

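No paired analysis was possible because the libraries form 1 group and their replicate numbers are only names. The calls on library number stayed at 0 under all 7 alternatives, and the difference of slopes on Adgre1 (7 or 8 members) and on Pdgfra (9) kept its direction under limma, without the libraries with transcripts of another tissue (reduced set) and without mice DO153 and DO347. Every member had counts in every library, with a lowest count of 45 for Krt18, and the part of depth in the results was not tested. The labels name no batch, so blocks of numbers stood in for one. For values that changed below, the cause was not tested.

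Counts of called members changed as follows. On Adgre1 it was 9 within libraries with Y chromosome counts against 5 over all, and on Pdgfra 4 there against 9. The difference on Upk3b was called for 3 members in the reduced set (33.8% of all genes) against 5 (38.9% of all genes). On mouse number it was 1 with Xist and Y chromosome genes in the model (12.3% of all genes) against 7 (23.9% of all genes). The median r of the 36 pairs, 0.452 over all libraries, was 0.687 without Y chromosome counts, 0.689 in the reduced set, 0.551 and 0.345 in mouse blocks 2 and 4, and 0.554 in library block 3. The median r with Adgre1, -0.0985 over all, was 0.0774 with total counts, -0.196 with and 0.158 without Y chromosome counts, -0.218 and -0.0285 in mouse blocks 2 and 5, and 0.0608, -0.175 and -0.204 in library blocks 1, 3 and 5. The median r with Pdgfra, 0.138 over all, was -0.0664 with and 0.307 without Y chromosome counts, and 0.278 and -0.0692 in mouse blocks 3 and 5. Total counts in place of TMM moved log2 CPM by a median of 0.0771 with and -0.0544 without Y chromosome counts.

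Single slopes turned as follows. On Adgre1, Krt18 had 0.0932 in limma, 0.0671 with VST values and 0.16 in the reduced set, Msln had -0.00126 with VST values and -0.0116 with Pdgfra in the model, and with Xist and Y chromosome genes in the model Wt1 had 0.10 and Krt8 -0.18. With those genes Krt8 also had 0.0231 on Pdgfra, 0.17 on Upk3b and -0.0175 on mouse number. In the reduced set Krt18 had 0.0102 and Krt19 0.28 on Pdgfra, Krt8 had 0.17 and Krt18 0.28 on Upk3b, the difference of Upk1b on Upk3b was 0.0430, Krt19 had -0.0102 on mouse number, and Krt8, Krt18 and Krt19 had 0.0443, 0.0238 and 0.00572 on library number. Within libraries with Y chromosome counts r of Upk3b and Krt18 was 0.0694 with total counts and 0.346 in the reduced set, and r of Upk3b and Pdgfra was 0.0433, 0.00214 and, without the 2 farthest libraries, 0.0211. With total counts r with Pdgfra was 0.00263 for Upk1b, 0.0200 for Krt8, 0.0632 for Krt18, 0.0621 for Krt19 and 0.0256 for Gpm6a, which had 0.0088 without the 2 farthest libraries. Of the other values of single members 723 kept their direction and their side of the threshold, 36 lost a call and 16 gained one.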
